A study of Homo sapiens with 12 samples.

Results

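The transcripts described here are the annotated intergenic long noncoding RNAs (lincRNAs) of the series, the transcripts that the deposited lncRNA table types as lincRNA. SnoRNA host genes named SNHG and the genes PVT1, CRNDE and JPX were left out. This gave 660 transcripts of 505 genes, out of 2819 annotated lncRNA transcripts of 2193 genes. A gene that the table lists under an older clone name stayed a member, also where its current name is SNHG19, SNHG25 or SNHG30.

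Cells of the human erythroleukaemia line HEL, as the labels name them, were grown with DMAG, a glucoside of methylated ellagic acid from the plant Sanguisorba officinalis, at 40 µg/ml for 3 days. For controls no dose, day or vehicle is stated in the sources used here. RNA-Seq of ribosome-depleted RNA and small RNA sequencing had 3 control and 3 DMAG samples each. The study concerns growth arrest and megakaryocytic differentiation of leukaemia cells.

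Long noncoding RNAs are transcripts with no known protein product. Intergenic ones are named for lying apart from protein-coding genes, although the type as deposited also holds transcripts that start next to one or overlap one. Some act as scaffolds in the nucleus, some bind RNA-binding proteins, and some are the precursors from which miRNAs are cut. A miRNA is a short RNA that represses mRNAs matching its seed, bases 2 to 8. Many lincRNAs have no known role, which the names of the members reflect. Of the 505 genes, 241 had no symbol beyond the gene ID and 22 had an ID with no match, while 101 carried a LINC number, 62 were named as divergent transcripts, 31 as antisense, intronic or overlapping transcripts and 11 as miRNA hosts.

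The libraries were checked before the comparison. The erythroid and megakaryocyte markers of HEL were under 1 FPKM in each library, apart from EPOR, the erythropoietin receptor, and HBG2, a fetal globin gene, which reached 1.69 FPKM in DMAG replicate 3 against 0.047 or less in the others, and 11 of these genes summed to 3.98 to 7.53 FPKM per library. GATA1, the master factor of the lineage, was at most 0.142 FPKM. Control libraries held 2041 to 2211 FPKM of 5 granulocyte markers and DMAG libraries 1057 to 1268. Of those 5, MPO, ELANE, PRTN3 and CTSG fell and AZU1 rose from 79.4 ± 1.16 to 100.2 ± 7.44 FPKM (SD, n = 3; limma, adjusted p = 0.0043). For 4 monocyte markers the sums were 167 to 171 and 429 to 479 FPKM. Nearly all of that was LYZ, which rose, as did ITGAM, while CD14 was at most 0.503 FPKM and CSF1R at most 0.225, both too low to be tested. In DMAG replicate 3 the 7 red blood cell genes summed to 1946 FPKM, against at most 0.268 in the other libraries. Their part in the results below was not tested. Counts of calls without that library are given for all members, for divergent transcripts and for genes named as miRNA hosts. Most other RNA-Seq counts include it. A lower level here may be fewer cells of a type or less RNA per cell, which bulk RNA cannot tell apart.

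Among the sequences that the results turn on are mature miRNAs that lie in or beside 3 lincRNAs, shown to compare their seeds, which stand in capitals (RefSeq, GRCh38.p14, 5′ to 3′). The MIR222HG pair shares 1 seed, while the seeds in each pair of the MIR503HG neighbourhood are alike but not identical. Of the latter 4 arms, miR-503-5p lies inside MIR503HG and the other 3 outside it. The last 3 lie in MIR99AHG. Of the 36 arms listed at 7 host genes in the deposited table, 34 matched a RefSeq sequence.
miR-221-3p: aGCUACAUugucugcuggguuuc
miR-222-3p: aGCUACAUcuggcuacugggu
miR-503-5p: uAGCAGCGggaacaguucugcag
miR-424-5p: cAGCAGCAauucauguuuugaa
miR-450a-5p: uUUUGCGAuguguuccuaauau
miR-450b-5p: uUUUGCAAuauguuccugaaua
let-7c-5p: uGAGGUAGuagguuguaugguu
let-7c-3p: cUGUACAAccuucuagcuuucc
miR-125b-2-3p: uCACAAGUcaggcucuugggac

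A further set are promoter windows of 300 bases (RefSeq, GRCh38.p14, 5′ to 3′ on the gene's strand). The first pair belongs to the lincRNA with the largest rise and to one in the antigen-processing locus. Capitals mark the core of the interferon-stimulated response element, GAAA, any 2 bases and GAAA again, searched on both strands. The LNCATV window is chr1:234963950-234964249 on the minus strand and held no match. The PSMB8-AS1 window is chr6:32843836-32844135 on the plus strand and held 1 match. The motif stood in 3.81% of 22114 promoter windows and in 5 of 147 windows of member genes. Of 31 windows of genes with a called rise, 2 held it, PSMB8-AS1 and MIR222HG. Other motifs were searched too. Of those, the ETS motif CCGGAAGT differed most, at 4.51% of all windows and 15 of 147 member windows (10.2%). It stood in 2 of the 31 windows, and no difference was tested.
LNCATV: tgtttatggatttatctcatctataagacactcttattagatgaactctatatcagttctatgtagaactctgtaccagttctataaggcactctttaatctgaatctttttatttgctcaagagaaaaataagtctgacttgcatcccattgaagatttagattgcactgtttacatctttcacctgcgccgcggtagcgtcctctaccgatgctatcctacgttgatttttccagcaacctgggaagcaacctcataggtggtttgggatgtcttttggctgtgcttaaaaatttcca
PSMB8-AS1: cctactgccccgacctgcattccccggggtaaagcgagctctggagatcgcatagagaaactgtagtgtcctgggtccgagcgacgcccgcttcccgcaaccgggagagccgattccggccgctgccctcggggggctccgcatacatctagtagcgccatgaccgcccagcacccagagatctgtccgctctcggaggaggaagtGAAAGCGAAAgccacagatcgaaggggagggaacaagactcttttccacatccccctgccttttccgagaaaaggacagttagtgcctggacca

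The window of CYTOR, chr2:87455177-87455476 on the plus strand, is shown because CYTOR and MIR4435-2HG are copies of each other on chromosome 2. Its capitals mark a run of 241 bases that is identical in the MIR4435-2HG window, chr2:111495112-111495411 on the minus strand. The run starts with the CYTOR window. In the MIR4435-2HG window it starts at base 60 and reaches the end. The window edges thus bound the run, and its full length is not known. CYTOR bases in small letters lie past the end of the MIR4435-2HG window and were not compared. How reads shared by the copies were counted is not given here, so the values of both genes are uncertain.
CYTOR: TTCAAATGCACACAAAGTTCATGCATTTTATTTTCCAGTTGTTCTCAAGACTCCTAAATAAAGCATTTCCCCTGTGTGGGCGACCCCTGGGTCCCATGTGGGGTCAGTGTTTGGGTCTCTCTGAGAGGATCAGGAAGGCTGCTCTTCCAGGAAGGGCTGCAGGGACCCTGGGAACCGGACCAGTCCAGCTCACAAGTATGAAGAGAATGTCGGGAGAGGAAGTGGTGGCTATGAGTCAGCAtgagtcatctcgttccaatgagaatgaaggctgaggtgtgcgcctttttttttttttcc

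Most lincRNAs were low. The median member had a mean of 0.970 FPKM over the 6 libraries (quartiles 0.480 and 2.23), 326 of 660 reached 1 FPKM and 25 reached 10 FPKM. In 12 members the mean lay under the 0.1 FPKM needed for a test, 1 of them 0 in each library, which left 648 tested. MALAT1, a nuclear speckle RNA, held 64.5% to 68.9% of all member FPKM in each library. Its 3 transcripts together held 3217 ± 247 FPKM in the control and 3563 ± 182 in the DMAG libraries (SD, n = 3), and none was called. Without MALAT1 the members summed to 1567 ± 11.7 and 1868 ± 31.2 FPKM.

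The comparison of DMAG with control libraries asked which lincRNAs differed. Of the 648 tested, 99 were higher and 20 lower with DMAG and 529 were not called (limma, adjusted p under 0.05). That is 18.4% called, against 16.1% of all 2746 annotated lncRNA transcripts tested, 12.7% of which were higher and 3.42% lower. On the log2 scale the median change was 0.31 for members, 0.20 for the whole table and 0.15 for the table without them. Antisense transcripts, the largest other type, were called in 18.8% and had a median of 0.21. A larger difference stood against sense-intronic transcripts, at 11.0% called, although these differences between types were not tested. Without DMAG replicate 3, 48 members were higher and 13 lower, beside 170 and 65 of the 2746 transcripts of the whole table. Without DMAG replicate 1 the member counts were 48 and 14, with 7.57% of the whole table called.

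The direction of the calls turned on the scaling. Control libraries had member medians of 0.872 to 0.912 FPKM and DMAG libraries of 1.09 to 1.19, with no overlap, while mRNA medians were 13.3 to 13.4 and 13.0 to 13.3. When libraries were set to the same median of the annotated lncRNA table, which moved its median log2 change from 0.20 to -0.04, 55 members were higher and 45 lower. Of those 100 members, 75 were among the 119 called on the values as deposited. In the whole table of 2746 transcripts, 186 were then higher and 204 lower. When libraries were set to the same median of mRNA genes, 101 members were higher and 20 lower, beside 359 and 86 of the whole table. The share called was 8.02% at means of 0.1 to 0.5 FPKM and 33.6% at 2 to 5 FPKM. The groups did not overlap in each of the 119 called members, in 301 of 648 members (46.5%) and in 38.9% of the whole table.

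**Figure D1:**
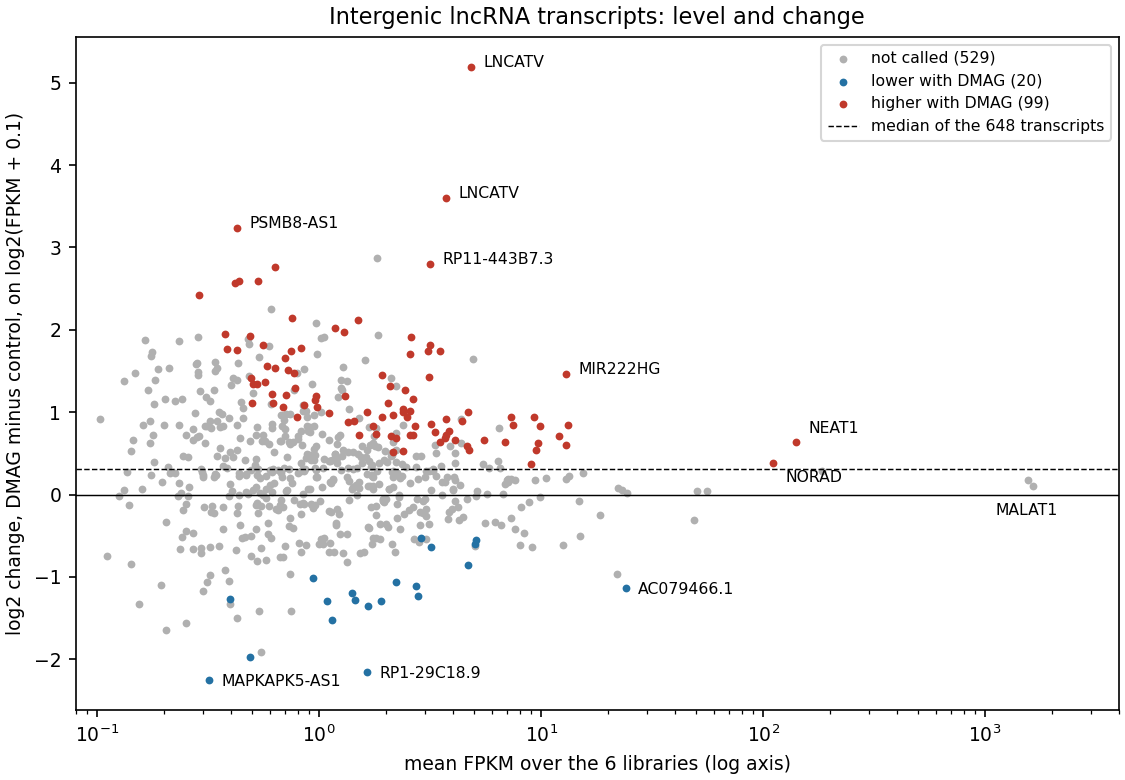
Each point is 1 of 648 lincRNA transcripts, with mean FPKM over the 6 libraries on a log axis and the log2 change (DMAG minus control) on the vertical axis. The 99 higher transcripts are red, the 20 lower blue and the 529 others grey, and the dashed line is the members' median of 0.31.

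**Figure D2:**
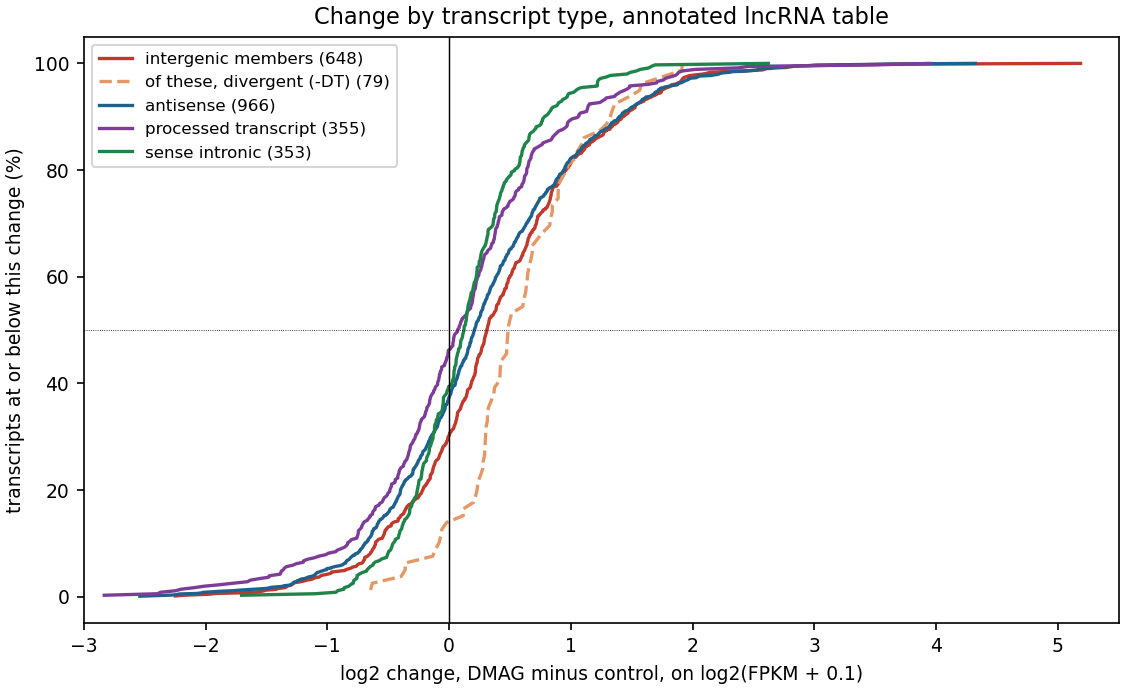
Cumulative share of tested transcripts at or below a log2 change (DMAG minus control), by transcript type of the annotated lncRNA table, with the number tested in brackets. The intergenic curve crosses 50% at 0.31 and the divergent transcripts among them at 0.49.

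The 5 largest rises stood at LNCATV, at a lincRNA of the same genomic clone and at PSMB8-AS1. LNCATV (chr1:234957342-234963999, minus strand), a lincRNA named for a part in antiviral defence, rose in 2 of its 3 transcripts. ENST00000451766.2 was at 0.179, 0.107 and 0.215 FPKM in controls and at 10.5, 8.24 and 9.80 with DMAG (log2 change 5.19, SE 0.21, adjusted p = 0.000108, limma). ENST00000418557.1 was at 0.586, 0.518 and 0.358 and then at 7.05, 7.71 and 6.12 FPKM (log2 change 3.60, adjusted p = 0.000432). Every DMAG library lay far above every control library. The third, ENST00000423988.1, was at 0.135, 0 and 0 and then at 0.250, 0.295 and 0.719 FPKM and was not called (adjusted p = 0.071). RP11-443B7.3, a lincRNA whose clone name places it on the same genomic clone, was at 0.403, 0.797 and 1.05 FPKM in controls and at 6.31, 5.59 and 4.69 with DMAG (log2 change 2.80, adjusted p = 0.0037).

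PSMB8-AS1 (chr6:32844086-32846500, plus strand) overlaps PSMB8, a catalytic subunit of the immunoproteasome, and TAP1, a peptide transporter of antigen presentation. Its transcript ENST00000415067.1 was listed at 0 in the 3 controls and at 0.975, 0.886 and 0.696 FPKM with DMAG (adjusted p = 0.0037). ENST00000458296.1 was at 0, 0 and 0.321 and then at 0.402, 1.35 and 1.72 FPKM (log2 change 2.77, adjusted p = 0.044). Leaving out control replicate 1 or 2, or DMAG replicate 2 or 3, ended this call, with adjusted p from 0.11 to 0.14. The most abundant transcript, ENST00000453426.1, overlapped between groups and was not called. Summed over transcripts, PSMB8-AS1 rose from 1.35 ± 0.307 to 3.48 ± 0.368 FPKM (log2 change 1.32, adjusted p = 0.0022, limma). The mRNAs around PSMB8-AS1 rose by less or fell. PSMB8 rose from 18.7 ± 0.843 to 22.5 ± 1.40 FPKM, TAP1 from 4.04 ± 0.0448 to 5.31 ± 0.144 and PSMB9, another immunoproteasome subunit, from 2.29 ± 0.269 to 4.0 ± 0.573 (SD, n = 3). TAP2, the partner of TAP1, fell from 10.7 ± 0.625 to 9.04 ± 0.187 FPKM. Reads from overlapping genes on opposite strands can be told apart only if the counting used strand, which is not given here.

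Of the other 7 largest rises, most started from values near 0. DSCR9, named for the Down syndrome region of chromosome 21, was at 0, 0.0940 and 0.0697 FPKM in controls and at 0.592, 0.834 and 1.02 with DMAG (log2 change 2.59, adjusted p = 0.0088). LINC02623 was at 0.202, 0.245 and 0.199 and then at 1.46, 1.09 and 1.33 FPKM (log2 change 2.14, adjusted p = 0.0037). RP11-1000B6.5 was at 0.537, 0.378 and 0.318 and then at 1.73, 1.93 and 2.19 FPKM (log2 change 2.02, adjusted p = 0.0038). These 3 kept their calls with each library left out in turn. LINC00663 (log2 change 2.59) and RP1-86C11.7 (log2 change 2.12) were called with all libraries and lost the call without any of 5 libraries, with adjusted p from 0.054 to 0.13. RP11-329B9.4 (log2 change 2.57) lost it without DMAG replicate 1 or 3, and RP11-143M1.3 (log2 change 2.43) without DMAG replicate 2. Among all 99 rises the median log2 change was 1.09, and 56 were at least 1.

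The falls were fewer, with a median log2 change of -1.21 over the 20 transcripts. AC079466.1 was the most abundant of them, at 33.1, 32.5 and 33.6 FPKM in controls and at 14.4, 15.7 and 15.0 with DMAG (log2 change -1.13, SE 0.07, adjusted p = 0.000554). Its libraries agreed closely within each group. RP1-29C18.9 was at 2.34, 2.78 and 3.10 and then at 0.443, 0.608 and 0.565 FPKM (log2 change -2.15, adjusted p = 0.0027). LINC01238 was at 2.57, 1.97 and 1.78 and then at 0.738, 0.766 and 0.906 FPKM (log2 change -1.28, adjusted p = 0.0082). AL035446.2 (log2 change -1.29) and RP11-36B6.2 (log2 change -1.20) also fell and kept their calls with each library left out. RP11-301G19.1 fell by 1.27 on the log2 scale, and its call was lost without any 1 of the 6 libraries (adjusted p from 0.057 to 0.11).

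Some genes had a fall called in only part of their transcripts. In MAPKAPK5-AS1, which lies against the kinase gene MAPKAPK5, ENST00000443596.1 was at 0.599, 0.551 and 0.629 FPKM in controls and at 0.0419, 0.0374 and 0.0586 with DMAG (log2 change -2.25, adjusted p = 0.0082). Its more abundant transcript ENST00000428207.4 was at 4.18, 5.03 and 3.24 and then at 3.81, 3.36 and 3.41 FPKM and was not called (adjusted p = 0.45). The remaining transcripts, also not called, had log2 changes of -0.16 and -0.38. The gene's sum was 6.35 ± 0.814 and 4.80 ± 0.227 FPKM (log2 change -0.39, adjusted p = 0.052, limma), just above the threshold. By contrast both transcripts of MIR646HG fell, ENST00000432910.5 from 1.77, 1.65 and 1.77 to 0.453, 0.419 and 0.790 FPKM (log2 change -1.53, adjusted p = 0.010) and ENST00000458422.5 by 1.35 on the log2 scale (adjusted p = 0.037). The second call was lost without any library but DMAG replicate 3, with adjusted p from 0.054 to 0.11. MIR3667HG fell in 2 of 4 transcripts, ENST00000343999.1 (log2 change -1.23) and ENST00000400023.5 (log2 change -1.11), and in its sum from 15.1 ± 0.303 to 10.5 ± 0.769 FPKM.

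**Figure D3:**
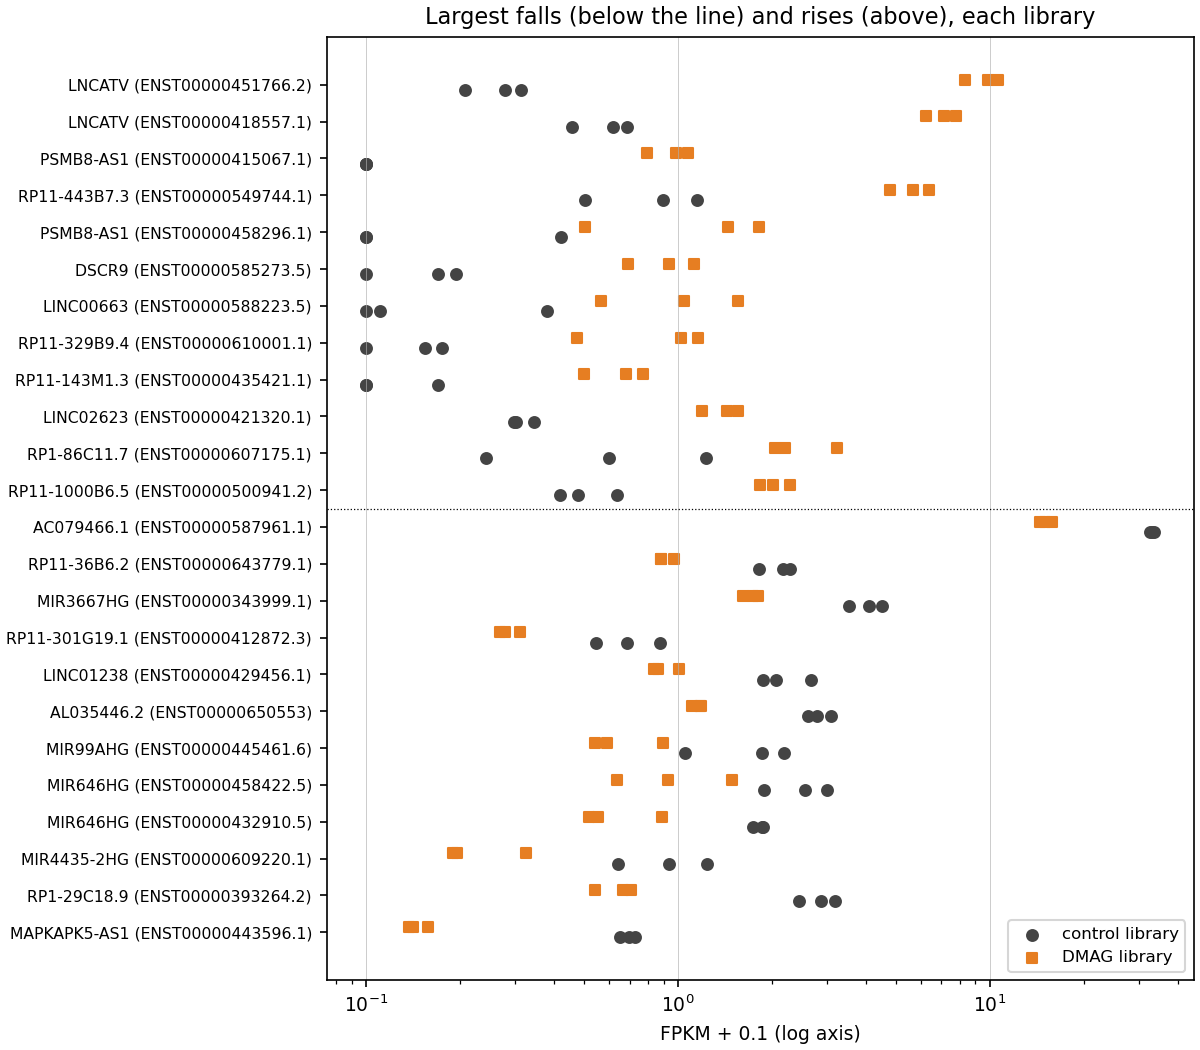
FPKM + 0.1 on a log axis for each library, controls as grey circles and DMAG as orange squares, for the 12 largest rises (above the dotted line) and 12 largest falls among called lincRNA transcripts. In each row all DMAG libraries lie on 1 side of all controls, and the LNCATV rows have the widest gap.

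Of 89 genes with several tested transcripts, 28 had a call, 3 were called in the same direction throughout and 2 were called both ways. CYTOR, a lincRNA known for its part in the cytoskeleton and in tumour growth, had ENST00000643589.1 at 7.22, 8.26 and 7.62 FPKM in controls and 10.8, 12 and 11 with DMAG (log2 change 0.55, adjusted p = 0.012). Its transcript ENST00000642451.1 was at 3.43, 3.27 and 3.52 and then at 2.52, 2.13 and 2.33 FPKM (log2 change -0.53, adjusted p = 0.030). The second call was lost without any 1 of the 6 libraries (adjusted p from 0.056 to 0.082). Summed over transcripts, CYTOR was at 13.8 ± 0.521 and 15.3 ± 0.616 FPKM and was not called (adjusted p = 0.21).

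Its copy MIR4435-2HG, which sets the lifespan of short-lived myeloid cells in mice under the name Morrbid, fell in 2 of 7 transcripts. ENST00000643013.1 was at 6.27, 6.16 and 5.74 FPKM in controls and 3.45, 3.38 and 3.09 with DMAG (log2 change -0.85, adjusted p = 0.0045). ENST00000609220.1 was at 1.14, 0.545 and 0.834 and then at 0.227, 0.0962 and 0.0904 FPKM (log2 change -1.98, adjusted p = 0.017), but leaving out control replicate 1 or 3, or DMAG replicate 2 or 3, ended this call (adjusted p from 0.054 to 0.063). The sum over its transcripts was 13.1 ± 0.789 and 13.5 ± 0.395 FPKM (adjusted p = 0.74). BCL2L11, the death-promoting gene beside it, was at 14.4 ± 2.51 and 14.7 ± 1.74 FPKM and was not called. LINC02987 also had calls both ways, ENST00000587188.1 (log2 change 1.74) and ENST00000585827.1 (log2 change -0.63), with a gene sum of 26 ± 2.18 and 26.6 ± 1.5 FPKM. Each of these calls was lost on leaving out any 1 of 5 libraries, with adjusted p from 0.053 to 0.10.

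Nuclear and RNA-binding lincRNAs were the most abundant members. NEAT1, the scaffold of paraspeckles, rose in ENST00000646243.1 from 102, 107 and 122 to 171, 175 and 169 FPKM (log2 change 0.64, SE 0.08, adjusted p = 0.0048). The other transcript, ENST00000612303.2, was at 59.7, 53.2 and 37.4 and then at 49.9, 50.7 and 50.9 FPKM, and its groups overlapped. NORAD, which binds PUMILIO proteins and guards genome stability, rose from 97.5, 94.5 and 97.5 to 130, 124 and 124 FPKM (log2 change 0.39, adjusted p = 0.0083). That call was lost when libraries were set to the same lncRNA median (log2 change 0.12, adjusted p = 0.21). FIRRE, which shapes chromatin contacts, was at 8.28, 8.67 and 8.63 and then at 7.44, 7.28 and 8.27 FPKM and was not called. Of the list of nuclear architecture lincRNAs, 2 of 7 tested transcripts were higher and the other 5 not called. Of all annotated lncRNA transcripts tested, 12.7% were higher and 3.42% lower. The list had a median log2 change of 0.18, beside 0.20 in the whole table.

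Of the other abundant members, GIHCG, RP11-498C9.15, EBLN3P and CTC-444N24.11 were within 0.08 of 0 on the log2 scale and were not called. CTC-444N24.11 was at 24.1, 24.1 and 24.5 FPKM in controls and at 24.5, 24.1 and 24.8 with DMAG. SNHG19 was at 51.1, 55.0 and 56.5 and then at 46.9, 44.6 and 39.9 FPKM, not called as a transcript (adjusted p = 0.050, above the threshold) and called lower in the fit of sums per gene, where it is also 1 transcript (log2 change -0.31, adjusted p = 0.026, limma). LINC00926 was at 26.2, 29.4 and 23.6 and then at 22.3, 25.5 and 4.22 FPKM, with the low value in DMAG replicate 3, the library with red blood cell transcripts. Of the lincRNAs listed for tumour growth, 2 of 13 tested transcripts were higher and 1 lower, beside 12.7% and 3.42% of the whole table. LINC00467 had ENST00000423222.5 higher, at 1.02, 0.950 and 1.19 and then at 2.67, 1.88 and 2.13 FPKM (log2 change 1.0, adjusted p = 0.015), which was lost without DMAG replicate 1 or 3 (adjusted p = 0.056 and 0.052). LINC00265 was not called. None of the 4 transcripts of LINC00662 was called, but their sum fell from 20.4 ± 2.44 to 15.2 ± 1.56 FPKM (log2 change -0.42, adjusted p = 0.030). Of the myeloid list, 2 of 9 tested transcripts were lower, both of MIR4435-2HG, beside 3.42% of the whole table.

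The small RNA libraries gave a second readout of lincRNAs that carry miRNAs. Of 35 listed arms tested in or beside 7 hosts, 19 were higher with DMAG, 5 lower and 11 not called (edgeR quasi-likelihood test, adjusted p under 0.05). Those are 54.3% and 14.3%, against 21.4% and 23.8% of all 583 miRNAs tested, 45.3% of which were called. The 26 arms placed inside their host had 10 higher (38.5%), 5 lower (19.2%) and 11 not called. All 7 placed outside, at MIR503HG, were higher, as were the 2 with no position here, miR-221-5p and miR-542-3p. Some arms, among them miR-181a-5p and miR-29b-3p, are also made from a hairpin elsewhere in the genome. Arms cut from the same transcript share their source. With any 1 small RNA library left out, 17 to 19 arms were higher and 3 or 4 lower.

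MIR222HG (chrX:45745214-45770267, minus strand) carries miR-221 and miR-222, which target the cell cycle inhibitor p27 and the receptor KIT. Its transcript ENST00000602507.1 was at 5.84, 6.12 and 7.02 FPKM in controls and at 30.8, 17.1 and 10.3 with DMAG (log2 change 1.47, SE 0.35, adjusted p = 0.033). ENST00000602461.1 was at 7.45, 7.87 and 7.24 and then at 14.1, 11.4 and 9.85 FPKM (log2 change 0.63, adjusted p = 0.025). The groups did not overlap in either, but DMAG replicate 1 was well above replicate 3. The first call was lost without any control or DMAG replicate 2 (adjusted p from 0.070 to 0.090), and the second without any library but DMAG replicate 3 (adjusted p from 0.055 to 0.070). Each of the 4 arms tested was higher. For miR-222-3p the levels were 6166, 5252 and 6345 CPM (counts scaled to the library total, with TMM) in controls and 10946, 10564 and 10118 with DMAG (log2 change 0.83, adjusted p = 6.04e-06). miR-221-3p, with the same seed, rose by a log2 change of 0.42, and miR-221-5p by 1.77.

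MIR503HG (chrX:134543377-134546630, minus strand) lies beside a run of miRNAs. Distances here are those of mature arms. Both miR-503 arms lie inside it, miR-424-3p 14 bases outside, miR-542-5p 1955 bases and the MIR450 arms 2792 to 3162 bases. miR-424 and miR-503 are of the miR-16 family, known to repress cyclins and to act in monocyte maturation. ENST00000414769.1 was at 1.14, 1.52 and 1.3 FPKM in controls and at 1.82, 2.36 and 2.66 with DMAG (log2 change 0.74, adjusted p = 0.045), a call lost without any 1 of the 6 libraries (adjusted p from 0.051 to 0.13). The gene's sum rose from 1.98 ± 0.237 to 4.04 ± 0.600 FPKM (adjusted p = 0.0037). Each of the 10 arms tested was higher, although miR-503-3p and miR-450a-1-3p lost the call without any of 4 libraries (edgeR, adjusted p from 0.055 to 0.20). The largest rise was that of miR-450b-5p, from 652, 617 and 729 to 2819, 2661 and 2648 CPM (log2 change 2.02, adjusted p = 3.89e-09). miR-503-5p went from 269, 261 and 268 to 471, 472 and 471 CPM (log2 change 0.83), and miR-424-5p from 294, 300 and 326 to 387, 406 and 417 CPM (log2 change 0.39). With column totals as the only scaling, which moved the median of all miRNAs from -0.08 to -0.28, 7 of the 10 were higher and all 10 were above 0.

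MIR23AHG (chr19:13834516-13842918, minus strand) holds miR-23a, miR-27a and miR-24-2, miRNAs studied in blood cell differentiation. ENST00000587762.1 rose from 2.38, 2.07 and 2.25 to 4.34, 4.17 and 3.87 FPKM (log2 change 0.86, adjusted p = 0.0070). Its arms did not move as one. miR-23a-3p rose from 3102, 2908 and 3388 to 4269, 4064 and 4023 CPM (log2 change 0.39), and miR-23a-5p, miR-24-2-5p and miR-27a-5p rose as well. miR-27a-3p was lower, at 5598, 6575 and 4906 and then at 4853, 4915 and 4349 CPM (log2 change -0.27, adjusted p = 0.039), but its groups overlapped and the call was lost without any library but control replicate 3 (adjusted p from 0.061 to 0.18). miR-24-3p, which a second hairpin on chromosome 9 also yields, was not called.

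MIR99AHG (chr21:16070488-16631727) holds miR-99a, let-7c and miR-125b-2, miRNAs known from megakaryocytic leukaemia. ENST00000445461.6 was at 1.76, 2.08 and 0.957 FPKM in controls and at 0.798, 0.491 and 0.444 with DMAG (log2 change -1.30, adjusted p = 0.042), a call lost without any library but control replicate 3 (adjusted p from 0.057 to 0.13). The gene's sum fell from 3.07 ± 0.533 to 1.24 ± 0.572 FPKM (adjusted p = 0.016). Of the 5 arms listed for it here, 3 fell. let-7c-3p went from 64.8, 63.2 and 58.4 to 29.1, 22.8 and 24 CPM (log2 change -1.29, adjusted p = 6.41e-06), let-7c-5p from 1949, 1935 and 1914 to 1606, 1635 and 1584 CPM (log2 change -0.27), and miR-125b-2-3p from 170, 150 and 175 to 88.5, 80.6 and 105 CPM (log2 change -0.85). miR-99a-5p, the most abundant of the 5, was at 9617, 10394 and 9215 and then at 10587, 10525 and 9594 CPM. It was not called (adjusted p = 0.43, edgeR).

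At the other 3 of these 7 hosts no transcript was called. MIR181A1HG was at 17.1, 20.0 and 15.7 FPKM in controls and at 14.4, 12.6 and 10.3 with DMAG (log2 change -0.50, adjusted p = 0.061). In the fit of sums per gene the same values were called lower (adjusted p = 0.032, limma). Its 4 arms were not called, the lowest adjusted p being that of miR-181a-3p at 0.051. MIR29B2CHG was at 4.37, 4.20 and 4.02 and then at 3.66, 3.74 and 3.70 FPKM, with miR-29c-5p higher (log2 change 0.55) and miR-29b-2-5p lower (log2 change -0.50), a call lost without control or DMAG replicate 3 (edgeR, adjusted p = 0.052 and 0.066). Neither MIR22HG transcript nor either arm of miR-22 was called. Outside these 7 hosts, chosen after their values were seen, let-7i-5p of MIRLET7IHG was higher (log2 change 0.32, adjusted p = 0.0041) and let-7i-3p lower (log2 change -0.68, adjusted p = 0.0029), and miR-3667-3p of MIR3667HG was not called (edgeR). Across all 27 tested transcripts of the 11 genes named as miRNA hosts, 4 were higher (14.8%) and 7 lower (25.9%), against 12.7% and 3.42% of the whole table. The 7 were of MIR4435-2HG, MIR646HG, MIR3667HG and MIR99AHG, so some of them share a gene. MIR4435-2HG held 7 of the 27, and its sum was not called (adjusted p = 0.74, limma). Set to the same lncRNA median, 1 of the 27 was higher and 9 lower, beside 186 and 204 of 2746 in the whole table. Without DMAG replicate 3, 4 were higher and 5 lower, beside 170 and 65 of the whole table.

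**Figure D4:**
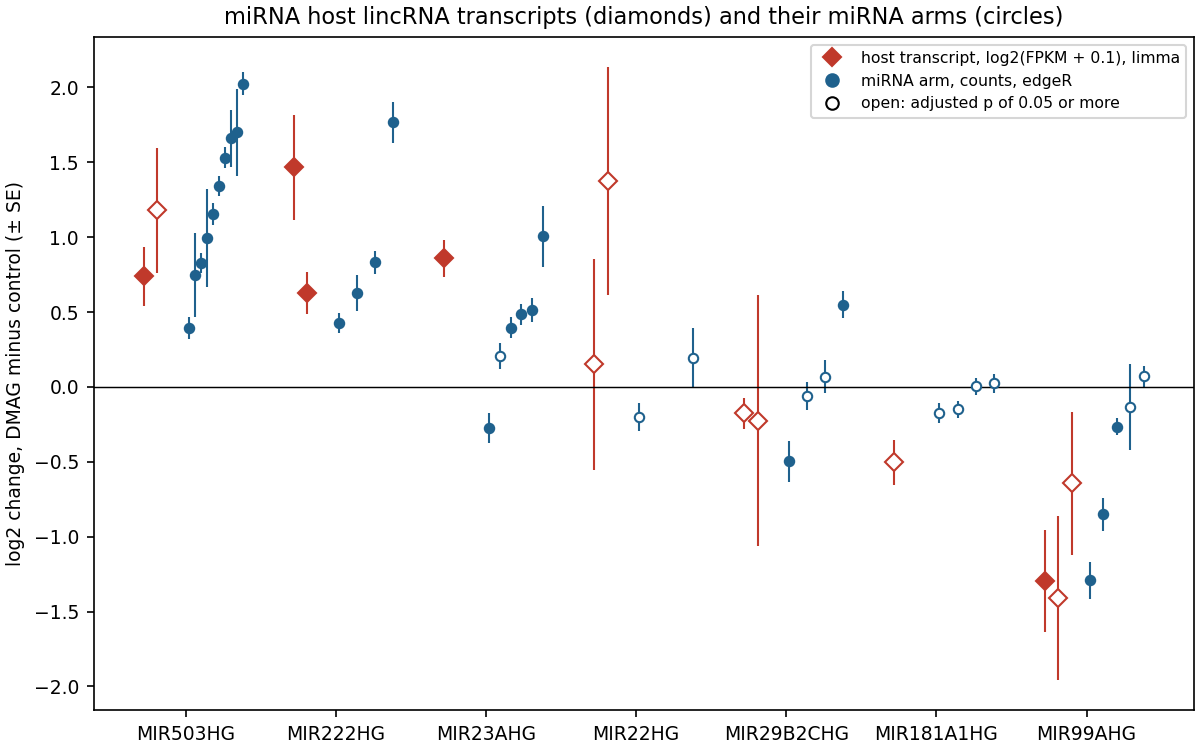
Log2 change (DMAG minus control, with standard error) of the tested transcripts of 7 miRNA host lincRNAs (red diamonds) and of the 35 tested miRNA arms in or beside them (blue circles), with open symbols for an adjusted p of 0.05 or more. All arms shown at MIR503HG and MIR222HG lie above 0, and none shown at MIR99AHG was called higher.

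Divergent transcripts start at the promoter of a protein-coding gene and run the other way. Of 79 tested, 14 were higher (17.7%, against 12.7% of the whole table) and none lower with DMAG (limma, adjusted p under 0.05). The share higher was 15.3% of all members and 15.4% of antisense transcripts. In the other name classes of members it ran from 8.0% to 17.2%, the last in genes with no symbol beyond the gene ID. At an unadjusted p under 0.05 (limma), 28 of the 79 were higher and 0 lower. Of all 648 members, 256 passed that threshold in either direction. That count was not split by direction, so it gives no baseline for the 28 and 0. Of the 79, 68 (86.1%) had a log2 change above 0, with a median of 0.49. Over all annotated lncRNA transcripts tested, 63.0% were above 0 and the median was 0.20. Among all 648 members 69.9% were above 0, with a median of 0.31. The transcripts that the table types as bidirectional promoter lncRNA, which are no members, had 4 of 23 higher and none lower, 100% above 0 and a median of 0.44. Set to the same lncRNA median, 7 of the 79 divergent members were higher and none was lower, beside 186 and 204 of 2746 in the whole table. Their median was then 0.25, against -0.04 for the table. Without DMAG replicate 3, 8 of the 79 were higher and none was lower, beside 170 and 65 of the whole table. ZNF236-DT rose from 1.02 ± 0.203 to 4.15 ± 1.04 FPKM (log2 change 1.91, adjusted p = 0.0043), INSIG1-DT from 1.13 ± 0.0573 to 3.03 ± 0.685 (log2 change 1.32, adjusted p = 0.0069) and GMDS-DT from 2.71 ± 0.223 to 4.27 ± 0.230 (log2 change 0.64, adjusted p = 0.015). Values are mean ± SD with n = 3.

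The mRNAs they are named after did not follow a single direction. In 59 pairs with both tested, 11 partner mRNAs were higher and 13 lower (18.6% and 22.0%, against 22.4% and 26.1% of the 10394 mRNA genes tested, 48.6% in all). Beside the 14 higher divergent transcripts, 3 partners were higher, 2 lower and 9 not called. INSIG1, a brake on sterol synthesis, was at 61.4 ± 9.14 and 63.4 ± 5.93 FPKM and was not called. GMDS, an enzyme of GDP-fucose synthesis, fell from 20.7 ± 0.540 to 11.8 ± 0.729 FPKM (adjusted p = 0.000162) while GMDS-DT rose. GSK3B, a kinase of WNT signalling, likewise fell, from 18.5 ± 0.673 to 15.5 ± 0.468 FPKM. The 3 partners that rose were ATP6AP1, SEPTIN7 and CENATAC.

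**Figure D5:**
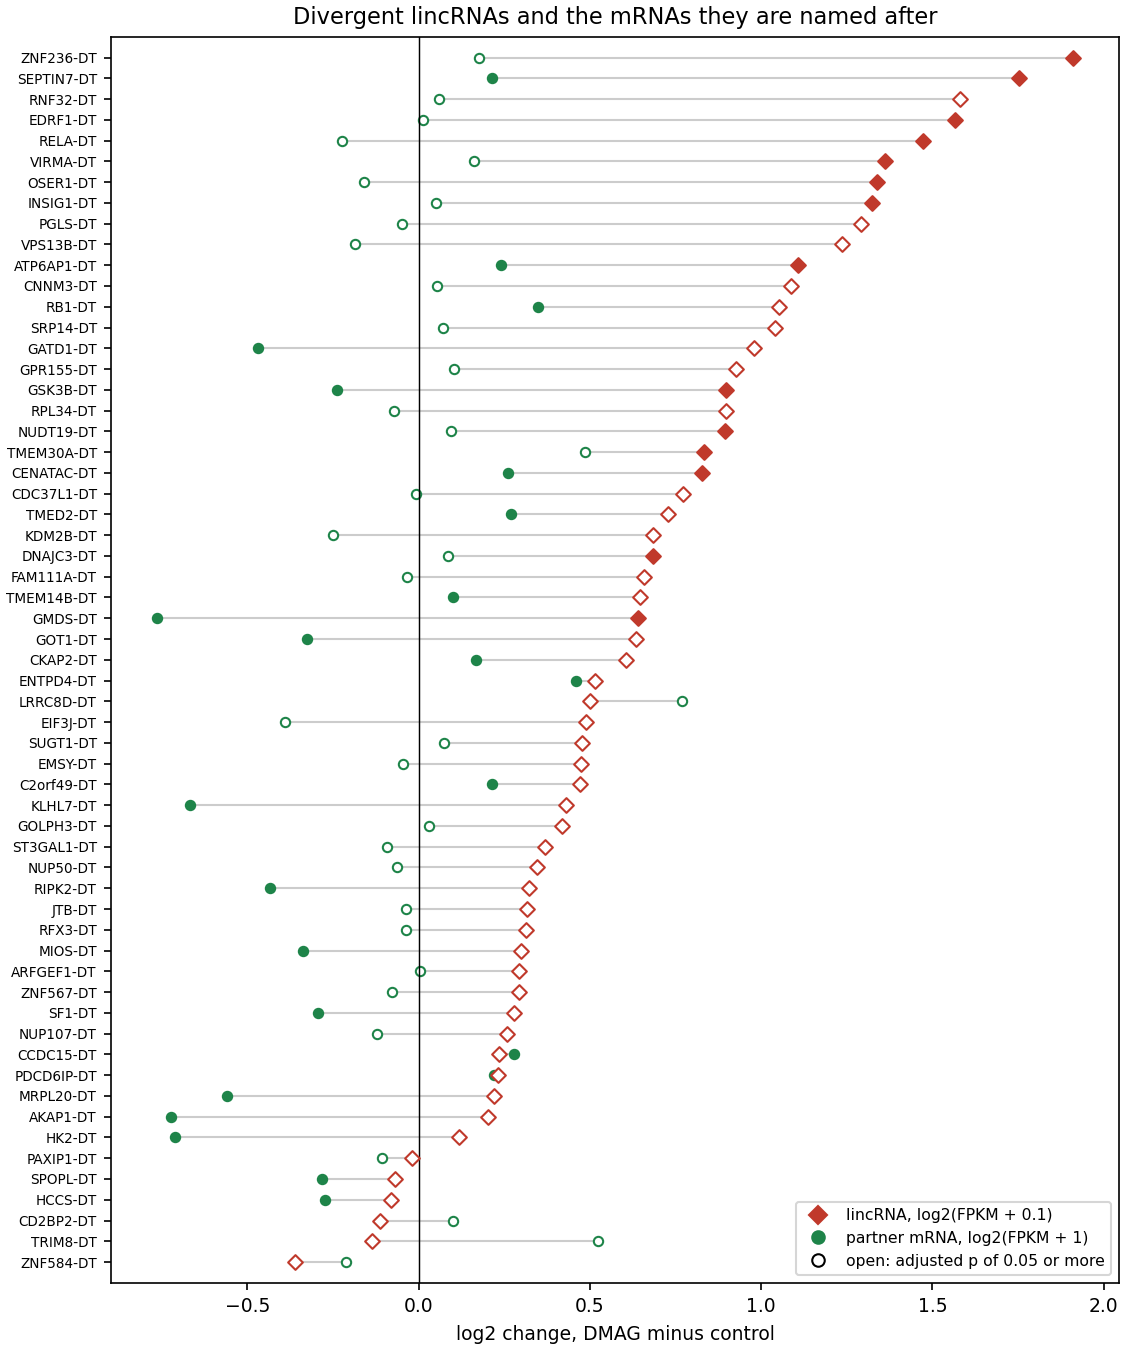
Log2 change (DMAG minus control) of 59 divergent lincRNAs (red diamonds) and of the mRNAs they are named after (green circles), joined by a line and sorted by the lincRNA. Open symbols have an adjusted p of 0.05 or more, and the filled diamonds all lie right of 0 while filled circles stand on both sides.

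Other protein-coding neighbours were taken from the nearest gene on each side within 100000 bases and any overlapping one, for the 212 member genes that had a placed neighbour. Of 260 distinct neighbours tested, 59 were higher and 82 lower with DMAG (22.7% and 31.5%, against 22.4% and 26.1% of all mRNA genes). PTPRC, the leukocyte antigen CD45, lies 50527 bases from MIR181A1HG and rose from 35.3 ± 0.490 to 60.6 ± 5.51 FPKM (adjusted p = 0.000327), while MIR181A1HG was not called as a transcript and was called lower in the fit of sums per gene. ZSWIM4, 2262 bases from MIR23AHG, rose from 1.37 ± 0.320 to 3.33 ± 0.422 FPKM (adjusted p = 0.0022). HPRT1, a purine salvage enzyme 42709 bases from MIR503HG, fell from 68.3 ± 1.19 to 59.8 ± 1.67 FPKM (adjusted p = 0.0056).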

How the data were processed

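Ribosome-depleted RNA-Seq and small RNA libraries of cells labelled HEL were used, 3 control and 3 DMAG samples each, with groups taken from the sample titles. Members and gene lists were chosen with earlier results of these data known. The authors deposited FPKM values per transcript for annotated lncRNAs and mRNAs, and read counts and TPM for miRNAs. The deposited TPM columns were not tested. Per the submitters' processing notes, StringTie 1.3.3, HISAT2 2.0.4 and Bowtie were used with the build GRCh38. How reads were counted, and whether strand was used, is not given in the sources. The depth behind FPKM is unknown, while each small RNA library held 4303596 to 6003077 deposited miRNA counts.

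FPKM values were tested with limma 3.58.1 (R 4.3.3, empirical Bayes with a mean trend). The lncRNA scale was log2(FPKM + 0.1), for transcripts averaging 0.1 FPKM or more, with p-values adjusted by Benjamini-Hochberg over all 2746 annotated lncRNA transcripts tested and called under 0.05. For mRNA, transcripts were summed per gene and tested on log2(FPKM + 1) where genes averaged 0.5 FPKM or more. These scales understate changes of low values. The miRNA counts were tested with edgeR 4.0.16 (quasi-likelihood, scaled by TMM, filtered by filterByExpr at a minimum count of 10), with DESeq2 1.42.0 as an alternative. Other alternatives were pseudocounts, filters, scalings, sums per gene, leaving out libraries in turn, and blocking on replicate number. The steps were tested on simulated data.

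Named transcripts were the 12 largest rises and falls among called members whose higher group averaged 0.5 FPKM or more, other tested transcripts of these genes, the 10 genes with the highest level, members of fixed lists and genes called both ways. Current symbols were found by gene ID for 483 of 505 genes. Positions, neighbours within 100000 bases and sequences came from RefSeq tables of GRCh38.p14, matched for 243 genes. No label states that the samples were separate cultures. P-values therefore reflect the spread between these samples, which may be technical. One marker gene is not reported here.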

Additional observations from a re-analysis of the deposited data

How the results depend on the processing

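The count of higher lincRNA transcripts, 99, was within 1.5 times of its value under the other pseudocounts, filters, sums per gene, the fit without a mean trend and scaling to the mRNA median. Scaling to the same lncRNA median gave 55 higher and 45 lower, beside 186 and 204 in the whole table. Leaving out 1 library gave 48 to 78 higher and 12 to 15 lower, fewer samples being fitted. The share of the whole table called was then 7.57% to 11.9%. With the replicate number as a block, 57 transcripts were higher and 15 lower, with 9.25% of the whole table called. Same-numbered libraries showed little shared deviation, with correlations of -0.01, -0.01 and 0.04 for lncRNA and -0.005, 0.04 and 0.03 for mRNA. Differently numbered ones ran from -0.04 to 0.05 and from -0.05 to 0.02. With 3 libraries per group such values cannot settle whether the numbers pair them. Among miRNA arms in or beside the 7 hosts, 5 were lower, against 2 with DESeq2, 10 with column totals only and 3 to 4 with 1 library left out; the cause was not tested. Neighbouring mRNA counts stayed within 1.5 times throughout. Of 37 named lincRNA transcripts called, 19 kept the call under each alternative, as did 18 of 24 miRNA arms.

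Changes of sign concerned transcripts and arms that were not called. Under the same lncRNA median, the log2 changes were -0.073 for PSMB8-AS1 ENST00000453426.1, -0.16 for MALAT1, -0.18 for RP11-498C9.15, -0.20 for EBLN3P, -0.22 for GIHCG and -0.25 for CTC-444N24.11, the last with an adjusted p of 0.046 (limma). With 1 library left out they ran from -0.17 to 0.49 for PSMB8-AS1 ENST00000453426.1, from -0.046 to 0.11 for GIHCG, from -0.25 to 0.033 for LINC00467 ENST00000534914.5, from -0.68 to 0.20 for MAPKAPK5-AS1 ENST00000442119.5, from -0.82 to 0.089 for MIR4435-2HG ENST00000444301.5 and from -0.57 to 0.19 for ENST00000439362.5. With column totals only they were -0.19 for miR-181a-5p and -0.17 for miR-181b-5p, both then called lower (edgeR), -0.0063 for miR-22-5p, -0.12 for miR-29c-3p and -0.13 for miR-99a-5p. For miR-29b-3p they were 0.037 with DESeq2 and 0.0075 with its size factors. With 1 library left out they ran from -0.14 to 0.046 for miR-29b-3p, from -0.0077 to 0.11 for miR-181a-5p, from -0.020 to 0.24 for miR-29c-3p and from -0.27 to 0.029 for miR-99a-3p.

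The depth behind FPKM is unknown. Of members at 0.1 to 0.5 FPKM, 8.02% were called.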
